A study of Mus musculus with 7 samples.

Results

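The regions described here are stretches of the mouse genome that carried chromatin state E1 in the GSK-LSD1 segmentation and state E3 in the DMSO segmentation. They were selected on those labels alone: both segmentations were expanded to 200 bp bins on chromosomes 1 to 19 and X, bins with E1 in GSK-LSD1 and E3 in DMSO were joined where they adjoined, and stretches of at least 1 kb were kept. This gave 1681 regions covering 4.45 Mb, out of 154886 stretches of at least 1 kb over every combination of states in both segmentations. In the segmentations, 24406 of the 9653161 bins that were E3 in DMSO were E1 in GSK-LSD1, which is 0.253% of them, and the regions hold 91.2% of that area. Because these labels chose the regions, their number and area are a description.

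Both segmentations came from CEBPA/CSF3R leukemia cells, mouse bone marrow cells of BALB/c background that carry mutant CSF3R and mutant CEBPA through retroviral expression, so both treatments share these alleles. The cells were exposed for 48 h to GSK-LSD1 at 4 nM or to DMSO, the solvent. ChIP-seq libraries for H3K4me1, H3K4me3 and H3K27Ac were made once per treatment, with 1 Input library besides, and the authors deposited 1 segmentation per treatment that combines the 3 marks. There are therefore no replicates, no test of treatment and no p-value, and each statement compares these 2 segmentations. The depth behind the labels is unknown, and the 95% Wilson intervals given for shares cover counting error only. They treat regions as independent, although many lie close together, so they can be too narrow even for that. Regions are not replicates of a treatment.

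LSD1, encoded by Kdm1a, is a demethylase of lysine 4 of histone H3 that works with the CoREST complex and is brought to chromatin by repressors such as GFI1 and GFI1B. H3K4me1 is typical of enhancers, H3K4me3 of promoters, and H3K27Ac of active elements of either kind. In myeloid cells, inhibition of LSD1 is known to activate enhancers that GFI1 and its partners keep silent.

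The marks that make up E1 to E6 are not stated in the labels, and states are described by their position. E3 covered 70.1% of the genome in GSK-LSD1 and 73.3% in DMSO, was the poorest state in ends of protein-coding genes, with 0.517 and 0.509 times the density of the whole genome, and is called background below. Every other state is called marked. E1 covered 124.41 Mb in GSK-LSD1 and 12.7 Mb in DMSO, with gene ends at 1.02 and 1.37 times the whole-genome density. E5 and E6, the states rich in gene ends, had them at 9.98 and 7.62 times that density in GSK-LSD1 and at 13.1 and 9.16 times in DMSO. E1 may be a different combination of marks in each segmentation: 61.2% of the bins that were E1 in DMSO were E1 in GSK-LSD1, and 76.6% of the bins that were E1 in GSK-LSD1 had been E2 in DMSO. E6 likewise covered 54.9 Mb in GSK-LSD1 and 5.73 Mb in DMSO, so the regions belong to a general difference between the segmentations, and the cause of that difference was not tested. As a check of the cell type, starts of the haematopoietic genes Ptprc, Cebpa and Runx1 had E5 or E6 within 1 kb in both segmentations. Starts of the granule genes Mpo and Elane had it in GSK-LSD1 but not in DMSO, the liver gene Alb had it in neither, and the neuronal gene Neurod1 had it in DMSO but not in GSK-LSD1.

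Of 21045 promoter windows of 17274 protein-coding genes (RefSeq, GRCm38.p6, 250 bases before to 50 after a start), 13 windows of 11 genes lay wholly inside a region, and 3 of the 13 are overlapping starts of 1 gene. They are 0.221% of the 5876 windows whose start was E3 in DMSO. Of all background bins, 0.253% were E1 in GSK-LSD1. These shares are measured differently. A window had to lie wholly inside a region of at least 1 kb, whereas the share of bins counts single bins, also those in shorter stretches. Each window below is shown because its start was E1 in GSK-LSD1 and E3 in DMSO, and this selection from the 11 genes was made after their values were seen. The first 280 bases of each window are given 5′ to 3′ on the gene's strand, and capitals mark matches on either strand to the letters searched. Those letters were TTGCNNAA for C/EBP, GAGGAAGT for PU.1 and TGTGGT for RUNX. For the repressor GFI1 they were AAATCA, and for the family of GATA factors they were AGATAA. Tbc1d5, shown for an alternative start inside the gene, is on the minus strand at chr17:51159349-51159628. Prss58, a trypsin-like protease gene, is on the minus strand at chr6:40900358-40900637. C1qtnf3, a secreted C1q and TNF related protein, is on the plus strand at chr15:10952082-10952361. Cd163l1, a scavenger receptor gene, is on the plus strand at chr7:140218017-140218296. Lim2, a lens membrane protein gene, is on the plus strand at chr7:43429849-43430128.
Tbc1d5: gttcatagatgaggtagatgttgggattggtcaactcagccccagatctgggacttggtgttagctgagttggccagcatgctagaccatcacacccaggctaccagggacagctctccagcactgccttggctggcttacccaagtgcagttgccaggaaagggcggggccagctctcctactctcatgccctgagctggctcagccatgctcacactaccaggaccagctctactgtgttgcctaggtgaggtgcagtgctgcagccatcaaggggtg
Prss58: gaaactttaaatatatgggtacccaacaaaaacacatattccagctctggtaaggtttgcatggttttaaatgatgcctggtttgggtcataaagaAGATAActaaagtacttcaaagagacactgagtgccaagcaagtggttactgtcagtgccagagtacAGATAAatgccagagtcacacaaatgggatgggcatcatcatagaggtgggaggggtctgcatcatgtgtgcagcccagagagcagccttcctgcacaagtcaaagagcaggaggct
C1qtnf3: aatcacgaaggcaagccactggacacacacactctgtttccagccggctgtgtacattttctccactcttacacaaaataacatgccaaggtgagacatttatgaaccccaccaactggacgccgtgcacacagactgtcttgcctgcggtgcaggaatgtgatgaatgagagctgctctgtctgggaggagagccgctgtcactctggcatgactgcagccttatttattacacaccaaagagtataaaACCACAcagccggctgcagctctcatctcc
Cd163l1: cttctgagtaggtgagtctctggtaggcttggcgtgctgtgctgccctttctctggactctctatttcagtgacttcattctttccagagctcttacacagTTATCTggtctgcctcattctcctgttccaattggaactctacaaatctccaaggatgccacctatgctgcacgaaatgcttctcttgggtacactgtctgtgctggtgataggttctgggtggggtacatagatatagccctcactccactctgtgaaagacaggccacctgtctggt
Lim2: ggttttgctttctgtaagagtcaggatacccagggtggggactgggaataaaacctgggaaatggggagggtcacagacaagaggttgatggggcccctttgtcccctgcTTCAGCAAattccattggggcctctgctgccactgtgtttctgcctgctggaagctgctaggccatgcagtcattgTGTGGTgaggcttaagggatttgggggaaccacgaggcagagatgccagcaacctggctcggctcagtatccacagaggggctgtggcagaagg

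Prss58 holds a pair of GATA matches, C1qtnf3 a RUNX match, Cd163l1 a GATA match, Lim2 a C/EBP and a RUNX match, and Tbc1d5 none. Over the 13 windows, RUNX letters were found in 4, GATA letters in 2, C/EBP letters in 1, GFI1 letters in 1 and PU.1 letters in 0. Over all 21045 windows the same letters were found in 14.7%, 9.68%, 10.3%, 12.4% and 3.15%, in that order. With 13 windows these counts describe the letters and nothing about binding. The windows were poor in CpG: the median was 2 CpG per window in the regions, 3 over the windows whose start was E3 in DMSO, and 13 over all windows. The other genes with a window wholly inside a region were the olfactory receptor genes Olfr432 and Olfr1257, the vesicular glutamate transporter gene Slc17a8, Ssmem1, 4930503B20Rik and 5830411N06Rik. Windows covered 17274 of the 21631 protein-coding genes, so starts of the remaining genes could not be placed and these counts are incomplete. Of 1005 annotated miRNA hairpins, 1 lay in a region: Gm51278 at chr6:99184962-99185019, inside a 7.8 kb region of Foxp1.

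The regions were short. Their median length was 2000 bp, with quartiles of 1400 and 3200 bp, and the longest measured 19000 bp; 178 were at least 5 kb and 18 at least 10 kb. At the length limit, 174 stretches of 1000 bp were kept and 219 stretches of 800 bp were not; in all, 854 shorter stretches with 427.4 kb fell below the limit. For comparison, stretches that were E2 in GSK-LSD1 and E3 in DMSO had a median of 11200 bp (n = 9691), and stretches that were E1 in GSK-LSD1 and E2 in DMSO had a median of 2800 bp (n = 23198). Most background stayed background: 91.0% of the bins that were E3 in DMSO were E3 in GSK-LSD1, 8.30% were E2, 0.396% were E4, 0.0354% were E5 and 0.00949% were E6. The opposite combination, E3 in GSK-LSD1 and E1 in DMSO, gave 30 stretches of at least 1 kb with 57.4 kb in all, beside the 1681 regions with 4453.8 kb. These totals start from states of very unlike size. As a share of the DMSO state, the opposite combination was the larger. It took up 0.615% of the bins that were E1 in DMSO, against 0.253% of those that were E3 in DMSO for E3 to E1. Seen from the treated side, the regions made up 3.58% of all E1 area in GSK-LSD1.

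The states beside the regions come from the same segmentations and are partly fixed by the rule: a region ends where the next bin is not E1 in GSK-LSD1 with E3 in DMSO, so that pair cannot lie outside an edge. The shares of outside states are therefore a description. Each region has 2 edges, 3362 in all. In GSK-LSD1 the adjoining bin was E2 at 71.7% of edges, E1 at 17.1%, E6 at 9.01%, E4 at 2.08% and E5 at 0.0595%, and it was E3 at 0 edges. In DMSO the adjoining bin was E3 at 80.6% of edges, E4 at 13.3%, E2 at 5.98% and E5 at 0.119%, and it was E1 or E6 at 0 edges. The absence of E3 next to the regions in GSK-LSD1 is shared by all 31739 E1 segments of that segmentation, whose borders were E2 at 55.6%, E6 at 39.9%, E4 at 4.23%, E5 at 0.268% and E3 at 0%. It follows that all 2709 edges with E3 outside in DMSO had a marked bin outside in GSK-LSD1: the label outside was E2 at 2400 of them, E6 at 240, E4 at 68 and E5 at 1.

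By both sides together, the commonest form was an island. In 757 regions (45.03%, 95% Wilson interval 42.7% to 47.4%), E2 lay on both sides in GSK-LSD1 where E3 had lain on both sides in DMSO, and these islands held 1892 kb. In 649 regions (38.6%) the region adjoined chromatin that was already marked in DMSO on 1 side, and in 2 regions on both sides. The remaining 273 regions (16.2%) had at least 1 neighbour other than E2 in GSK-LSD1 and E3 on both sides in DMSO. The median length was 2000 bp for islands, 2000 bp for regions beside marked chromatin and 2200 bp for the remaining ones. E2 lay on both sides in GSK-LSD1 for 45.6% of the regions, against 24.9% of the stretches that were E1 in GSK-LSD1 and E2 in DMSO, whose edges are fixed by another pair of states, so the shares stand side by side only. Where the outside bin was already marked in DMSO, it was mostly E1 in GSK-LSD1 and E4 or E2 in DMSO: 390 edges had E1 outside in GSK-LSD1 and E4 in DMSO, and 186 had E1 outside in GSK-LSD1 and E2 in DMSO. In 1106 regions (65.8%) the whole E1 segment of GSK-LSD1 was background in DMSO, and in the others the segment ran on over bins that were marked in DMSO.

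**Figure D1:**
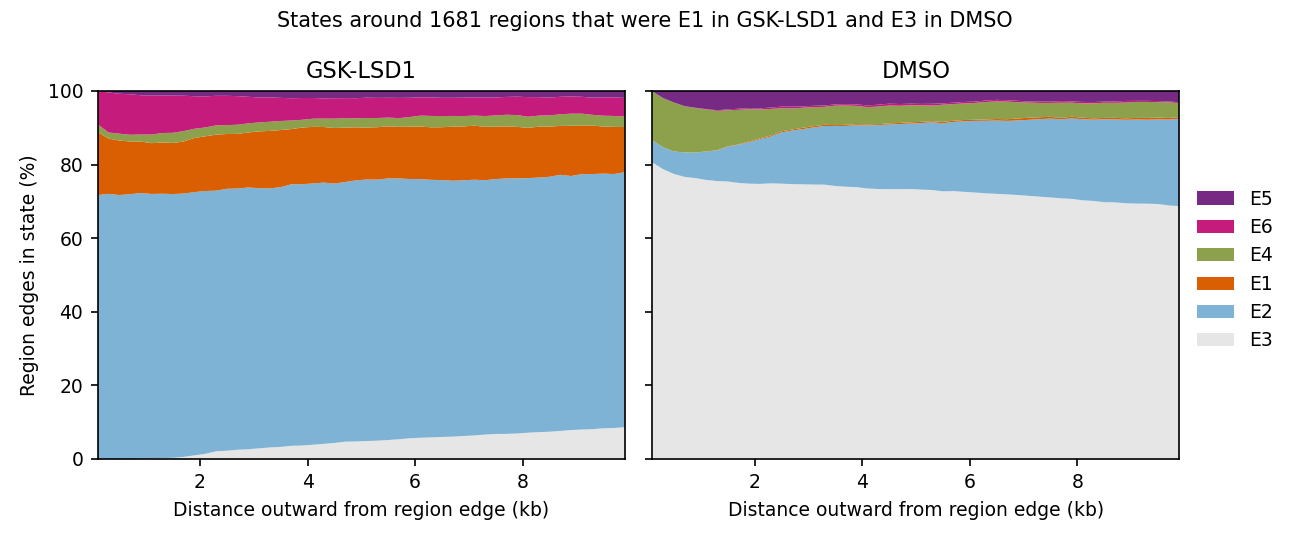
Share of the 3362 region edges in each state (vertical axis, %) by distance outward from the edge (horizontal axis, kb), in GSK-LSD1 on the left and DMSO on the right; each coloured band is 1 state. At 9.7 kb from the edge E3 made up 8.39% in GSK-LSD1 and 68.9% in DMSO, and E2 made up 69.0% in GSK-LSD1 and 23.3% in DMSO.

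The profile of states around the regions shows how far this surround reached. At 0.7 kb outward, 72.0% of edges were E2 in GSK-LSD1 and 6.66% were E2 in DMSO. E6 in GSK-LSD1 was at 11.0% at 0.7 kb and at 5.03% at 9.7 kb. E4 in DMSO was at 12.5% at 0.7 kb and at 4.25% at 9.7 kb, and E5 in DMSO was at 4.13% and 2.86% at the same distances. E1 stayed between 0% and 0.446% in DMSO at the distances of 0.7 kb, 1.7 kb and so on to 9.7 kb, while in GSK-LSD1 it was at 14.3% at 0.7 kb and 12.8% at 9.7 kb.

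The regions sat in long marked blocks of the treated cells. An unbroken stretch of marked bins in GSK-LSD1 is called a block, and the 1681 regions lay in 919 blocks, 344 of which held more than 1 region. Over the regions, the block around each had a median length of 320.6 kb with quartiles of 144.0 and 590.6 kb, and a median of 38.6% of the block had been E3 in DMSO. E5 or E6 lay somewhere in the block in GSK-LSD1 for 1567 regions (93.2%) and in DMSO, over the same blocks, for 1484 regions (88.3%). Every E1 bin of GSK-LSD1 lies in a block by definition, and a block counts once for each region in it. The same shares were not taken for other E1 stretches, so these block values are not shown to be particular to the regions. The nearest E5 or E6 bin was a median of 10.1 kb away in GSK-LSD1 and 23.5 kb away in DMSO. The stretch of background in DMSO that held a region had a median length of 47.6 kb, with quartiles of 27.2 and 93.8 kb.

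A few blocks had no marked bin in DMSO. These held 63 regions (3.75%, 95% Wilson interval 2.94% to 4.77%) in 55 blocks, with a median block length of 23.4 kb, out of 980 such blocks in GSK-LSD1 whose median length was 6.2 kb. The 63 regions covered 153.6 kb, and 17 of them had E5 or E6 in their block. The longest measured 5.6 kb at chr9:80535001-80540600, in a 49.0 kb block 69.3 kb from Impg1, a gene for a proteoglycan of the retinal matrix. A region of 5.4 kb at chr1:145611401-145616800 was the E1 part of a 215 kb block, 836 kb from Rgs18, a regulator of G protein signalling in blood cells. Another of 5.4 kb lay at chr6:65527001-65532400, in a 16.2 kb block 58.0 kb from Tnip3, an inhibitor of NF-kB signalling.

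Closeness to marked chromatin of DMSO was measured from the DMSO labels. Of the regions, 651 (38.7%) touched a marked bin of DMSO, 804 (47.8%) lay less than 1 kb from one, and 486 (28.9%) lay over 10 kb away, with a median of 1.4 kb and a maximum of 707.8 kb. The share of DMSO background that was E1 in GSK-LSD1 was lower at each greater distance. It was 4.77% of bins at 0.2 to 1 kb from a marked bin, 3.17% at 1.2 to 2 kb, 1.56% at 2.2 to 5 kb, 0.772% at 5.2 to 10 kb, 0.431% at 10.2 to 20 kb, 0.204% at 20.2 to 50 kb and 0.0187% farther out. The share that was E2 in GSK-LSD1 had another shape: it was 33.3% in the nearest band, 40.8% at 2.2 to 5 kb, 25.3% at 10.2 to 20 kb and 1.08% beyond 50 kb. The nearest bands are small, with 106086 bins at 0.2 to 1 kb against 6501189 beyond 50 kb.

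**Figure D2:**
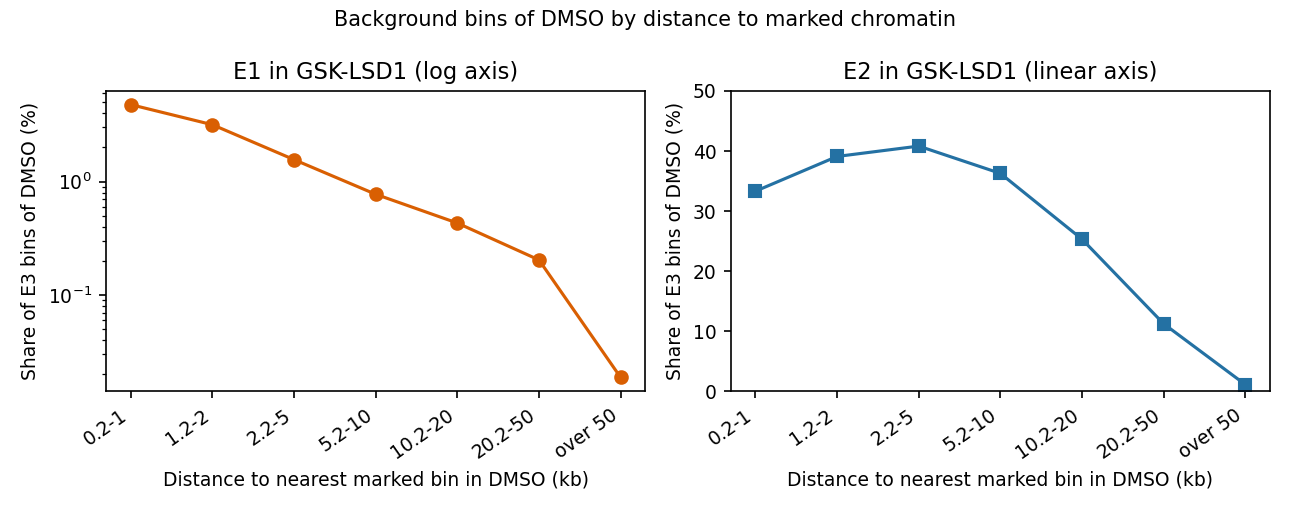
Bins that were E3 in DMSO, grouped by distance to the nearest marked bin of DMSO (horizontal axis, kb), with the share that was E1 in GSK-LSD1 on the left (%, log axis) and E2 in GSK-LSD1 on the right (%, linear axis). E1 runs down from 4.77% to 0.0187%, and E2 is highest at 40.8% in the band of 2.2 to 5 kb.

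By position in the gene annotation, the regions' area lay about as far from gene ends as the genome does: 86.4% of their bins were over 2.5 kb from every end of a gene of any type, against 90.4% of all bins that were E3 in DMSO and 86.6% of the genome. Bins with an end of a protein-coding gene numbered 25.6 per 10000 in the regions, against 16.4 per 10000 in all E3 of DMSO and 32.1 per 10000 in the genome. Counted by region, of 1681 regions, 1323 (78.7%, 95% Wilson interval 76.7% to 80.6%) were over 2.5 kb from every end of a gene of any type, 50 (2.97%) held an end of a protein-coding gene, and 645 (38.4%) were over 50 kb from every such end. The median distance to an end of a protein-coding gene was 31.8 kb, against 13.6 kb for stretches that were E2 in GSK-LSD1 and E3 in DMSO, and 16.1 kb for stretches that were E1 in GSK-LSD1 and E2 in DMSO. The first of these comparison sets has longer stretches, which reach more gene ends. By area, it was close to the regions. Of its bins, 87.06% were over 2.5 kb from every end of a gene of any type, against 86.4% in the regions. Bins with an end of a protein-coding gene numbered 24.96 per 10000 in it, against 25.6 in the regions. In the second set the values were 84.5% and 29.3 per 10000. A protein-coding gene was overlapped by 868 regions (51.6%, interval 49.2% to 54.0%), against 55.1% and 64.6% in the same comparison sets. Counted by bins, which takes out length, 49.6% of the regions' area was inside protein-coding genes, against 51.3% and 63.6% in the comparison sets, 64.1% of all E1 of GSK-LSD1, 30.9% of all E3 of DMSO and 39.1% of the genome. DMSO background inside protein-coding genes was E1 in GSK-LSD1 at 0.404% of bins, against 0.185% outside them. Of the 813 regions outside protein-coding genes, the median distance to the nearest was 44.9 kb. With each host gene of known strand divided into 5 equal intervals from its start, 13.4% of 659 region midpoints were in the first interval, and 22.8%, 20.9%, 21.5% and 21.4% in the following ones.

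Every chromosome held regions, with 159 on chromosome 1, 134 each on chromosomes 10 and 13, and 133 on chromosome 2. The regions took up 0.252% ± 0.0823 of the DMSO background of an autosome (SD over 19 autosomes, which are not replicates), with 0.140% on chromosome 4 and 0.482% on chromosome 13 as the ends of the range. As a share of E1 in GSK-LSD1 they took up 3.54% ± 1.05, with 1.92% on chromosome 11 and 5.61% on chromosome 13 as the ends. Chromosome X stood apart in both measures: its 46 regions took up 0.0676% of its DMSO background and 28.1% of its E1 in GSK-LSD1. X had little E1 in all, 401 kb or 0.234% of its length, and E3 covered 94.9% of it in GSK-LSD1 and 97.5% in DMSO. Of its E1 bins in GSK-LSD1, 32.6% had been E3 in DMSO and 47.0% had been E2, against autosomal means of 3.88% ± 1.12 and 76.7% ± 2.25 (SD over the 19 autosomes).

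**Figure D3:**
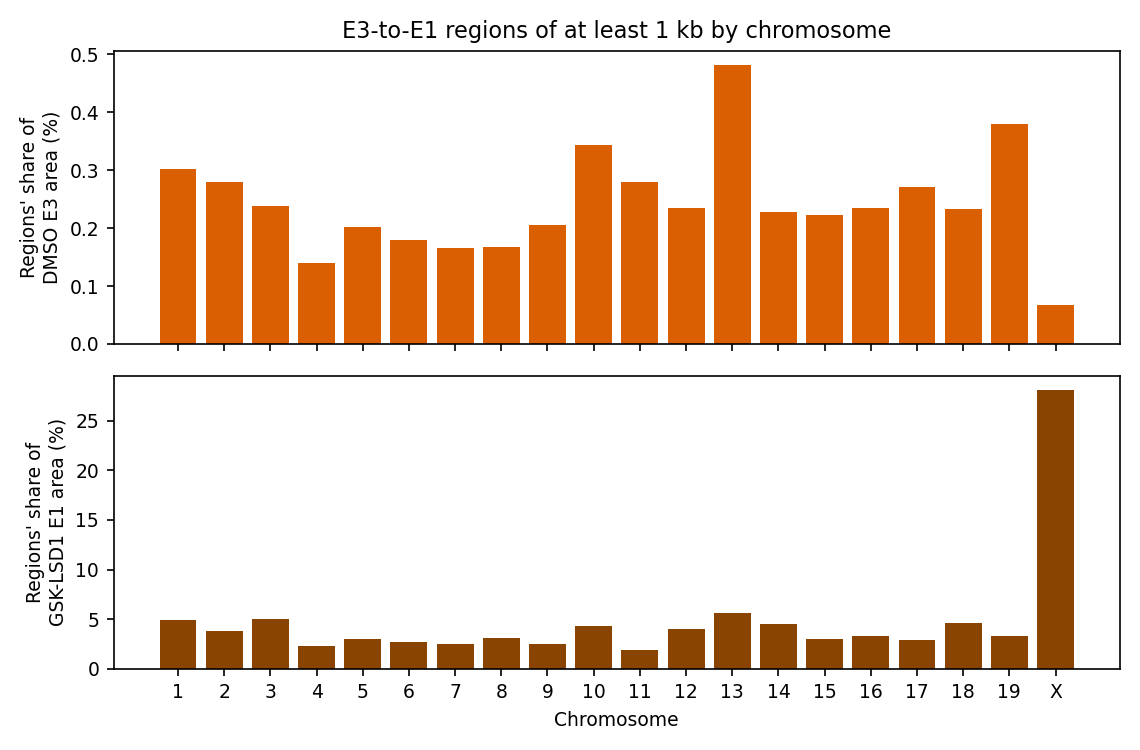
Area of the regions on each chromosome (horizontal axis) as a share of the E3 area of DMSO (top, %) and of the E1 area of GSK-LSD1 (bottom, %); each bar is 1 chromosome in these 2 segmentations. Chromosome X is lowest in the top panel at 0.0676% and highest in the bottom panel at 28.1%.

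Over genes, 615 of 21631 protein-coding genes (2.84%) had a region in the body and 1031 (4.77%) had one in the body or within 20 kb. A region was found in 0.220% of genes under 10 kb, 1.11% of genes of 10 to 30 kb, 4.50% of genes of 30 to 100 kb, 10.5% of genes of 100 to 300 kb and 18.5% of longer genes. Per 10 Mb of gene the numbers were 5.56, 6.77, 10.7, 9.19 and 6.55 regions in the same length classes. The median length was 98.3 kb for genes with a region and 17.3 kb for all genes. More than 1 region lay in 166 genes, and at least 3 in 48.

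Tbc1d5, a Rab GTPase-activating protein of the retromer and autophagy pathways, had the most regions, 13 with 46.0 kb. Over its body E1 covered 22.4% in GSK-LSD1 and 0.268% in DMSO, E2 covered 75.01% in GSK-LSD1 and 30.4% in DMSO, and E3 covered 0% in GSK-LSD1 and 66.3% in DMSO. Pde4d, a phosphodiesterase that breaks down cAMP, had 11 regions with 31 kb, and Pde7b, another cAMP phosphodiesterase, had 5 with 14.8 kb. Lpp, a LIM domain protein of cell adhesion sites, had 10 regions with 37.8 kb, and E1 covered 15.3% of its body in GSK-LSD1 and 0% in DMSO. Trps1, a repressor with a GATA-type zinc finger, had 7 regions with 12.2 kb. Foxp1, a forkhead transcription factor, had 5 regions with 27.2 kb: E3 covered 0% of its body in GSK-LSD1 and 16.0% in DMSO.

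Other genes with a large summed length were Stxbp4, a syntaxin-binding protein, with 2 regions and 23.2 kb, and Itga2, the alpha subunit of a collagen-binding integrin, with 4 regions and 20.4 kb. Ankrd55, an ankyrin repeat protein, had 3 regions with 18.2 kb. Inpp4b, a phosphatidylinositol phosphatase, had 3 with 16.2 kb, and Angpt1, a ligand of the receptor TIE2, had 3 with 15.8 kb. Diaph2, a formin on chromosome X, had 5 regions with 15.2 kb, while E3 covered 77.5% of its body in GSK-LSD1 and 99.1% in DMSO. These genes differ in how much background they kept: E3 covered 50.8% of the body of Inpp4b in GSK-LSD1 and 91.6% in DMSO, but 0% of the body of Itga2 in GSK-LSD1 and 60.3% in DMSO.

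The longest region, 19 kb at chr13:113397001-113416000, lay outside genes, 26.5 kb from Cspg4b, with E6 on both sides in GSK-LSD1 and E3 on both sides in DMSO. Next came 15.4 kb in Ldlrad4 on chromosome 18, which adjoined E1 on both sides in GSK-LSD1 and E4 on both sides in DMSO. Stxbp4 held a region of 15 kb at chr11:90599801-90614800. In Tbc1d5 the longest measured 13.6 kb at chr17:51100001-51113600 and was an island in E2. Emb, a membrane glycoprotein that escorts lactate transporters, had 13.2 kb at chr13:117270401-117283600 running over its end, and E6 covered 36.9% of its body in GSK-LSD1 and 0% in DMSO. A region of 12.6 kb ran over an end of Alpk2, with 6.49 kb of it in the gene body. Others above 11 kb lay in Ahi1, a ciliary protein, with 13.0 kb, in Cuedc1 with 12.2 kb and in Sgip1, an endocytic protein, with 12 kb. Outside genes they lay 8.36 kb from 4930512M02Rik with 13.2 kb, 170 kb from the ADP receptor gene P2ry1 with 11.8 kb, and 59.97 kb from the lysophosphatidic acid receptor gene Lpar1 with 11.2 kb.

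Gene ends inside regions belonged to 53 protein-coding genes. Among the longest such regions, 10.6 kb held the facing ends of Fam117b and Ica1l, and 6.6 kb held an end of Cradd, an adaptor of caspase activation. Some small genes lay in E1 from end to end in GSK-LSD1: E1 covered 100% of Prss58 in GSK-LSD1 and 0% in DMSO, where E3 covered 92.3%. Olfr432 had E1 over 100% of its body in GSK-LSD1 and E3 over 100% in DMSO. Olfr432 lay wholly inside a region, so both of its values are fixed by the rule that chose the regions. For Prss58, 4.787 of 5.126 kb lay in a region, so its values are largely fixed too. In Clec4b2, a C-type lectin receptor gene, E1 covered 18.1% and E2 81.9% in GSK-LSD1, and E3 covered 100% in DMSO. Dzip3, a ubiquitin ligase gene, had E2 over 84.6% in GSK-LSD1 and E3 over 94.0% in DMSO.

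Regions lay in groups at some places. With regions no more than 20 kb apart counted as 1 group, there were 1322 groups, of which 1061 were single regions, 261 held more than 1 region and 620 regions together, and 55 held at least 3. The largest, 9 regions with 38.4 kb at chr17:51068001-51172800, lay in Tbc1d5: this span was 39.5% E1 and 60.5% E2 in GSK-LSD1 and 92.6% E3 in DMSO. Within it, the regions of 13.6 kb and 8.6 kb were both islands in E2, and the alternative start shown above lay in the 8.6 kb region. At C1qtnf3, 6 regions with 16.0 kb, of which 2 overlapped the gene and 4 lay outside it, were found at chr15:10926801-10957400, 54.9% E1 in GSK-LSD1 and 100% E3 in DMSO. Foxp1 held 5 at chr6:99137401-99187400, 54.8% E1 in GSK-LSD1 and 100% E3 in DMSO.

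Evi5, a Rab GTPase regulator named after a viral integration site, held 5 regions at chr5:107765801-107789000, where 66.4% was E1, 9.48% was E2 and 24.1% was E5 or E6 in GSK-LSD1 and 100% was E3 in DMSO. Its neighbour on the chromosome is Gfi1, whose nearest region measured 4.6 kb and lay 30.5 kb away at chr5:107681601-107686200. Groups were also found far from protein-coding genes: 5 regions with 22.4 kb lay at chr13:45128801-45174600, 127 kb from Dtnbp1, and 6 with 18.2 kb at chr7:58436201-58483800, 172 kb from Atp10a.

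**Figure D4:**
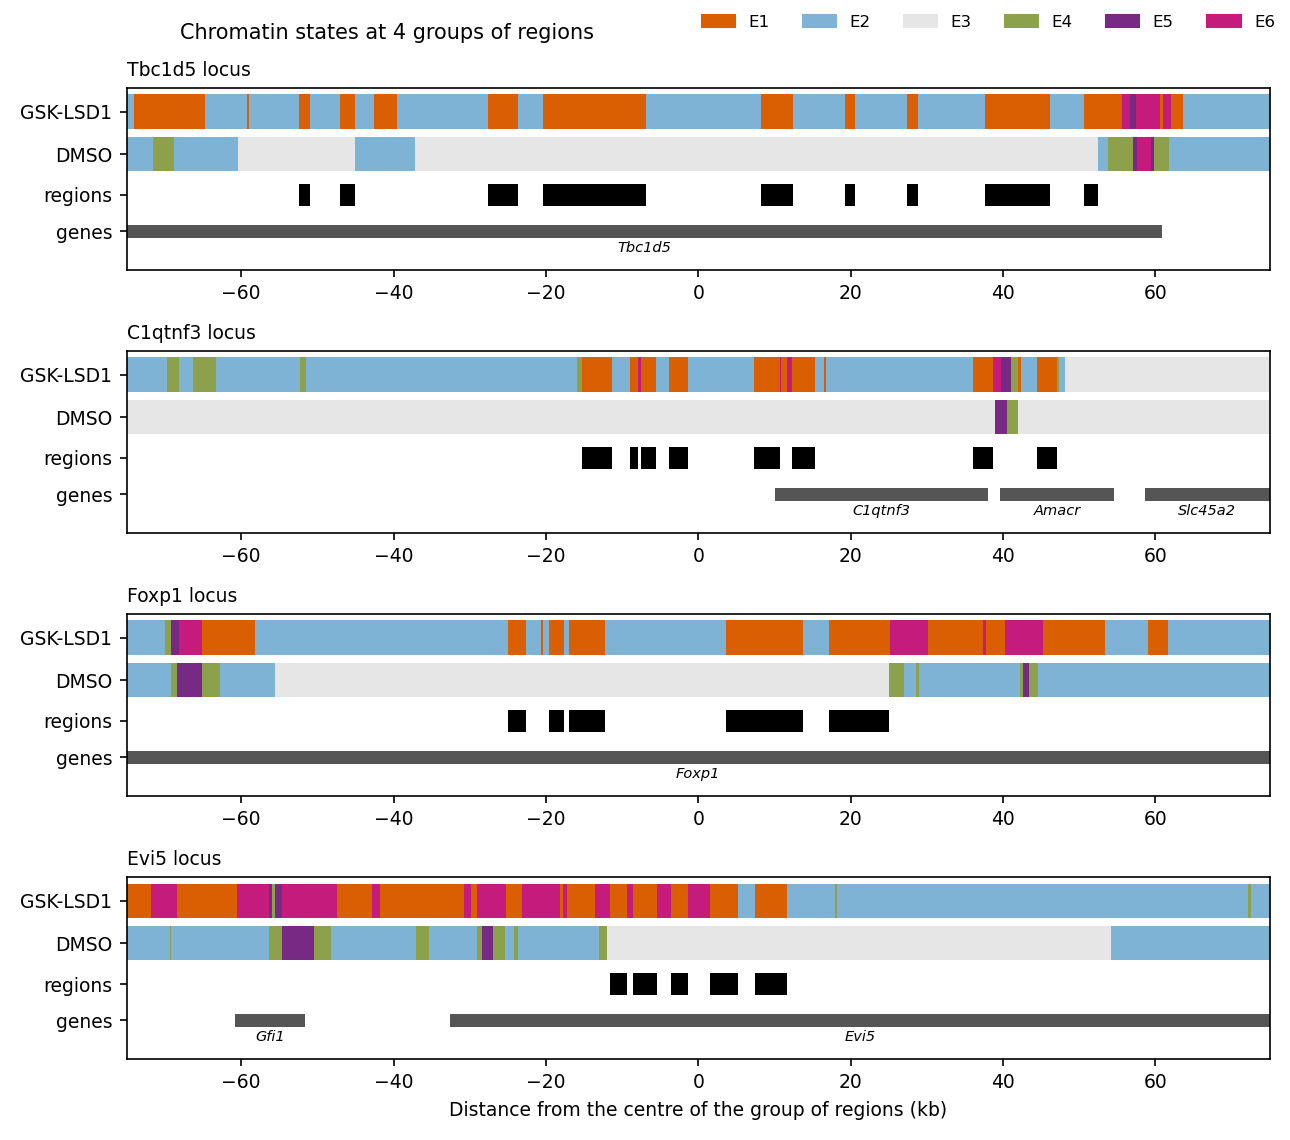
Chromatin states along 150 kb around 4 groups of regions, at Tbc1d5, C1qtnf3, Foxp1 and Evi5, chosen after their values were seen; the horizontal axis is the distance from the centre of the group (kb), and the rows are GSK-LSD1, DMSO, the regions in black and protein-coding genes in grey. At all 4, E1 pieces stand apart within E2, E4 or E6 in GSK-LSD1 and at least 92.6% of the group's own span, between its first and last region, is E3 in DMSO.

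By block, the most regions were 15 with 60.8 kb in the 1752.6 kb block around Tbc1d5, 10 of them islands. The 1328 kb block around Lpp held 12 with 41.0 kb. A stretch without protein-coding genes at chr2:45946001-46455000 was 1 block of 509 kb in GSK-LSD1 with 11 regions, 9 of them islands, and 90.2% of it was E3 in DMSO. Its nearest protein-coding gene was Zeb2, a zinc finger repressor active in haematopoiesis, and 4 of the 5 regions farthest from any protein-coding gene were in it, between 1197 and 1318 kb from Zeb2; the other lay 1222 kb from Nmbr. A 761 kb block on chromosome 5 held 11 regions with 39.8 kb, some of them over Areg and Ereg, which encode ligands of the EGF receptor. A 433.8 kb block on chromosome 13 held 9 regions with 46.4 kb, some of them over the integrin genes Itga1 and Itga2. The 1142.8 kb block with regions in Rb1, the retinoblastoma tumour suppressor, held 8 with 47.6 kb.

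Gene lists of the myeloid lineage and of LSD1 partners were read against the shares over all protein-coding genes, 2.84% for the body and 4.77% within 20 kb. Of 18 granulocyte maturation genes 0 had a region within 20 kb, and likewise 0 of 18 genes of JAK/STAT signalling, 0 of 15 erythroid and megakaryocyte genes, 0 of 16 genes of unrelated tissues and 0 of 15 housekeeping genes. The median gene length in these lists was 6.69 kb for granulocyte maturation, 24.1 kb for JAK/STAT signalling, 15.3 kb for erythroid and megakaryocyte genes, 12.9 kb for unrelated tissues and 4.86 kb for housekeeping, against 17.3 kb over all genes. Of 9 genes listed under azurophil granules 2 had a region within 20 kb and 0 in the body. Nkg7, which is listed there but encodes a cytotoxic granule protein, had 6.2 kb. Ctsg, the protease cathepsin G, had 1.0 kb. Of 18 monocyte and macrophage genes 1 had a region within 20 kb, Mrc1, the mannose receptor, with 2.4 kb in its body.

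Of 22 genes listed as myeloid transcription factors 4 had a region within 20 kb and 2 in the body. Their median length was 55.1 kb, and that of the progenitor and leukaemia list was 45.2 kb, against 17.3 kb over all genes, and the share of genes with a region was higher in longer genes, as given above. The part of gene length in these counts was not tested. Tcf4, a basic helix-loop-helix factor of plasmacytoid dendritic cells, had 9.2 kb, Bach2, a repressor of lymphoid cells, had 4.6 kb, Zeb2 had 3.4 kb and Etv6, an ETS repressor, had 3.0 kb. Around these regions the gene bodies were marked to different degrees. E1 covered 68.7% of Zeb2 in GSK-LSD1 and 0% in DMSO, and 78.3% of Etv6 in GSK-LSD1 and 30.2% in DMSO. Neither of these bodies had E3 in either segmentation. Tcf4 and Bach2, which had regions in the body, kept background. E3 covered 16.3% of Tcf4 in GSK-LSD1 and 44.3% in DMSO. In Bach2 the order was reversed, with 36.2% in GSK-LSD1 and 29.0% in DMSO. Of 18 progenitor and leukaemia genes 3 had a region within 20 kb: Mecom, which encodes EVI1, with 6.2 kb in 3 regions, the homeobox gene Meis1 with 4.8 kb, and the cell cycle kinase gene Cdk6 with 2.6 kb. Over the body of Mecom, E2 covered 85.1% and E3 0% in GSK-LSD1, and E2 covered 34.8% and E3 61.6% in DMSO.

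Of 13 genes of LSD1, CoREST and GFI1, 1 had a region within 20 kb, Gfi1b, a repressor of erythroid and megakaryocytic cells, with 2.8 kb. Kdm1a itself had its nearest region 2609 kb away. Of the mouse genome's own copies of the genes expressed in mutant form, Cebpa had its nearest region 8307 kb away, and Csf3r 425 kb away, in Ago1. Cebpe, a factor of late granulocyte maturation, had a region of 7.2 kb 92.8 kb away, in Rnf212b. Markers of other cell types that a bone marrow culture can hold were also looked up. Of 18 B and T lymphocyte genes 1 had a region, the B cell adaptor Bank1 with 3.6 kb. Of 11 genes of mast cells, basophils and eosinophils 1 did, the interleukin 5 receptor gene Il5ra with 3.4 kb, and of 12 genes of stroma and endothelium 1 did, the PDGF receptor gene Pdgfrb with 1.4 kb. The lists hold 9 to 22 genes each, so every count rests on 4 genes or fewer, and no test was made.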

How the data were processed

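The authors deposited state labels, E1 to E6, for segments on a 200 bp grid, per the labels as 1 segmentation for each treatment, which pools the H3K4me1, H3K4me3 and H3K27Ac libraries. Bowtie and mm10 (GRCm38) are named in the submitters' processing notes; neither they nor the labels name the segmentation tool, its thresholds, the use of the Input or whether both treatments were fitted together. The depth of the libraries is unknown, and its part in how much chromatin is marked was not tested. Reads were not analysed here.

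Segments were expanded to bins with Python 3.11.15, numpy 2.4.6 and pandas 2.3.3, and intervals used scipy 1.17.1. Gene bodies and ends came from RefSeq (GRCm38.p6); promoter windows were matched by position. Distances used both ends of each gene. All 203 list entries matched the gene table. Genes named are those of the longest regions, the largest summed lengths and numbers per gene, the leading members of each list, gene ends in regions, the farthest regions, and Gfi1, Cebpa, Cebpe, Csf3r and Kdm1a; groups, blocks and promoter genes were named besides, after their values were seen. The regions and lists were chosen with earlier results of these data known. The steps were tested on simulated data, in which 161 of 161 planted regions came back with their boundaries. Alternatives changed the length limit, merging, chromosomes, state definition, gene set and flank. Some genes that the rules take are left out.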

Additional observations from a re-analysis of the deposited data

How the results depend on the processing

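No paired analysis was possible because each treatment has 1 segmentation and no test was made. With a minimum of 2 kb there were 918 regions with a median of 3000 bp, in 359 genes. With a minimum of 600 bp the median was 1600 bp, 42.6% had E2 on both sides in GSK-LSD1 and 41.6% lay beside marked chromatin of DMSO. That last share was 48.6% with E1 or E6 in GSK-LSD1, 44.1% by the commonest state within 1 kb, 47.1% by the state 1 kb away, and 0% when both neighbouring bins also had to be E3 in DMSO, by construction. With genes of any type, 61.0% of regions overlapped a gene. The distal share was 86.6% at over 1 kb and 69.7% at over 5 kb. Leaving out each chromosome in turn gave 1522 to 1635 regions, 4009.4 to 4341 kb, a median length of 2000 to 2000 bp, 554 to 602 genes, 50.9% to 52.4% overlapping a gene, 78.0% to 79.3% distal, a median distance to a gene end of 31.2 to 32.8 kb, 45.2% to 46.0% with E2 on both sides in GSK-LSD1 and 38.1% to 39.6% beside marked chromatin of DMSO. Of the recomputed values, 238 moved by less than their interval or spread or stayed within 1.5 times. Most of these are the values with 1 chromosome left out, which keep most of the regions and could hardly move. Adding every sequence added no region. The count of 238 is therefore no measure of stability. Depth is unknown, and without replicates no difference between the segmentations could be set against biological spread.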
